A study of Homo sapiens with 4 samples.

Results

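The sites described here are the 269 LACE-seq sites that the deposited list annotates as promoter, out of 17625 sites in all. They were taken by the annotation text, and sites on the mitochondrial chromosome, on chromosome 21 ahead of position 9000000 and in 4 named intervals of chromosomes 4, 17 and 19 were dropped, which removed 65 of 334 promoter sites. The list came from NCI-H1299 cells, an established human lung carcinoma line grown in RPMI1640 with serum. LACE-seq amplifies cDNA ends from RNA pulled down with an antibody, so that contacts of a protein can be placed on the genome. The protein was P5CS, a mitochondrial enzyme that turns glutamate into a precursor of proline. The study made 4 libraries, 2 with anti-P5CS and 2 with IgG, from the same line, and the labels do not say whether libraries of a group came from separate cultures. The list holds positions and names but neither levels per library nor scores. The antibodies were therefore not compared, sequencing depth is unknown, and the values carry no replicate error. No source used here says whether sites seen with IgG were taken out.

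A promoter is the DNA around the base where transcription of a gene begins. An RNA contact there is read from RNA that spans the start, either the gene's own 5' end or another transcript running through it. For small structured RNAs, such as the spliceosomal U RNAs, 5S ribosomal RNA, 7SK and the small nucleolar RNAs that guide ribosomal RNA modification, the whole RNA lies within a short distance of its start. Spliceosomal U1, U5 and U6 RNAs take part in intron removal, 7SK holds the elongation factor P-TEFb in an inactive complex, and most small nucleolar RNAs are cut out of introns of host genes.

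In these data the label meant something narrower than a promoter region. All 334 promoter sites of the list had a deposited distance of 0 bases to the assigned start, and 0 of the other sites held their assigned start. Each of the 269 sites thus spanned the first annotated base of its transcript, and all 269 carried the 5' UTR label in the region column. No site of the class lay wholly upstream of its start. The median site reached 9 bases ahead of the start and covered 21 bases from the start on. The 269 sites were assigned to 194 genes and 203 annotated starts on 24 chromosomes, with 53 sites on chromosome 1 and 25 on chromosome 17.

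The sequences at the starts are shown first because the results turn on what lies under a site. Sequences here are from RefSeq on GRCh38.p14, written 5' to 3' along the gene. For the microRNA genes MIR21 and MIR16-2, the hairpin has the bases under the site in capitals, and the mature microRNA has its seed, bases 2 to 8, in capitals.
MIR21 hairpin, chr17:59841266-59841337, plus strand: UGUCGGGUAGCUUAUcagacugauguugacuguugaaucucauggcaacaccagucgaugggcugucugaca
hsa-miR-21-5p, chr17:59841273-59841294, plus strand: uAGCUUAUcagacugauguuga
MIR16-2 hairpin, chr3:160404745-160404825, plus strand: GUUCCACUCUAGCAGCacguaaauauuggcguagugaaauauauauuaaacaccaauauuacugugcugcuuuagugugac
hsa-miR-16-5p, chr3:160404754-160404775, plus strand: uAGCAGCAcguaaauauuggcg
Both sites were listed on the strand opposite to the microRNA, and no listed site covered either hairpin on its own strand (0.0%). Another microRNA gene, MIR612, had promoter sites on both strands. Listed sites covered 23.0% of it on its own strand and 43.0% on the opposite strand. By position, the MIR21 site covered hairpin bases 1 to 15, which include bases 1 to 8 of hsa-miR-21-5p and so its whole seed. The MIR16-2 site covered hairpin bases 1 to 16, and bases 1 to 7 of hsa-miR-16-5p. It held no base of the 3' arm product hsa-miR-16-2-3p. These microRNAs repress mRNAs that pair with the seed. The seeds differ, so each microRNA is a seed group of its own here.

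For protein-coding genes the site is in capitals and the bases ahead of it in lower case. The strand given is that of the gene. Promoter sites were listed on both strands at CALR and UAP1, and only opposite to the gene at the others shown.
CALR, chr19:12938549-12938620, plus strand: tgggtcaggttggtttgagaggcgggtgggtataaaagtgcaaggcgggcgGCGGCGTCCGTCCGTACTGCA
HSP90B1, chr12:103930350-103930420, plus strand: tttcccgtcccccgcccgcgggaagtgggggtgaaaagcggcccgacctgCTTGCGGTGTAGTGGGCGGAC
PPIA, chr7:44796620-44796700, plus strand: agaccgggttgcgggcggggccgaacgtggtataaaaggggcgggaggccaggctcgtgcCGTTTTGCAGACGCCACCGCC
MAT2A, chr2:85539108-85539180, plus strand: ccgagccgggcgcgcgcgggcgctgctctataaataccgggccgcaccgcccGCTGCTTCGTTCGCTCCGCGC
HNRNPA3, chr2:177212712-177212780, plus strand: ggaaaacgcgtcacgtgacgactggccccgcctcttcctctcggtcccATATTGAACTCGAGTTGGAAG
UAP1, chr1:162561662-162561740, plus strand: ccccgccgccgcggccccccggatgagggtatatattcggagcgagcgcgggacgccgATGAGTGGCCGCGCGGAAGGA
POU2F1, chr1:167220826-167220900, plus strand: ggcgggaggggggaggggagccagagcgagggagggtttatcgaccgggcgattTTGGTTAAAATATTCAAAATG
CALR and HSP90B1 encode chaperones of the endoplasmic reticulum, PPIA a prolyl isomerase, MAT2A the enzyme that makes S-adenosylmethionine, HNRNPA3 an RNA-binding protein, UAP1 an enzyme of amino sugar metabolism and POU2F1 a transcription factor. The letters TATAAA stood in the CALR, PPIA and MAT2A windows. The POU2F1 site had the lowest GC content of the sites with sequence, at 19.0%.

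Small structured RNAs made up the largest named group. Named small RNA genes and their pseudogenes took 102 of 269 sites (37.9%) on 81 genes, and protein-coding genes took 74 (27.5%) on 56 genes. Long noncoding RNA genes had 20 sites on 7 genes, mitochondrial pseudogenes 13 on 8, other pseudogenes 19 on 12, and genes without a symbol 39 on 28. The remaining 2 sites were at GAGE2C and GAGE4, which the RefSeq gene table does not list under those names. Among the small RNAs there were 21 sites at 16 U1 genes, 19 at 17 C/D box small nucleolar RNA genes, 18 at 15 5S genes, 16 at 11 U6 genes and 9 at 7 U5 genes. By RefSeq class, 48 of the 102 small RNA sites were on 39 pseudogenes. Copies of U1, U6 and 5S are near identical in sequence, so the assignment of a site to a particular copy is uncertain.

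**Figure D1:**
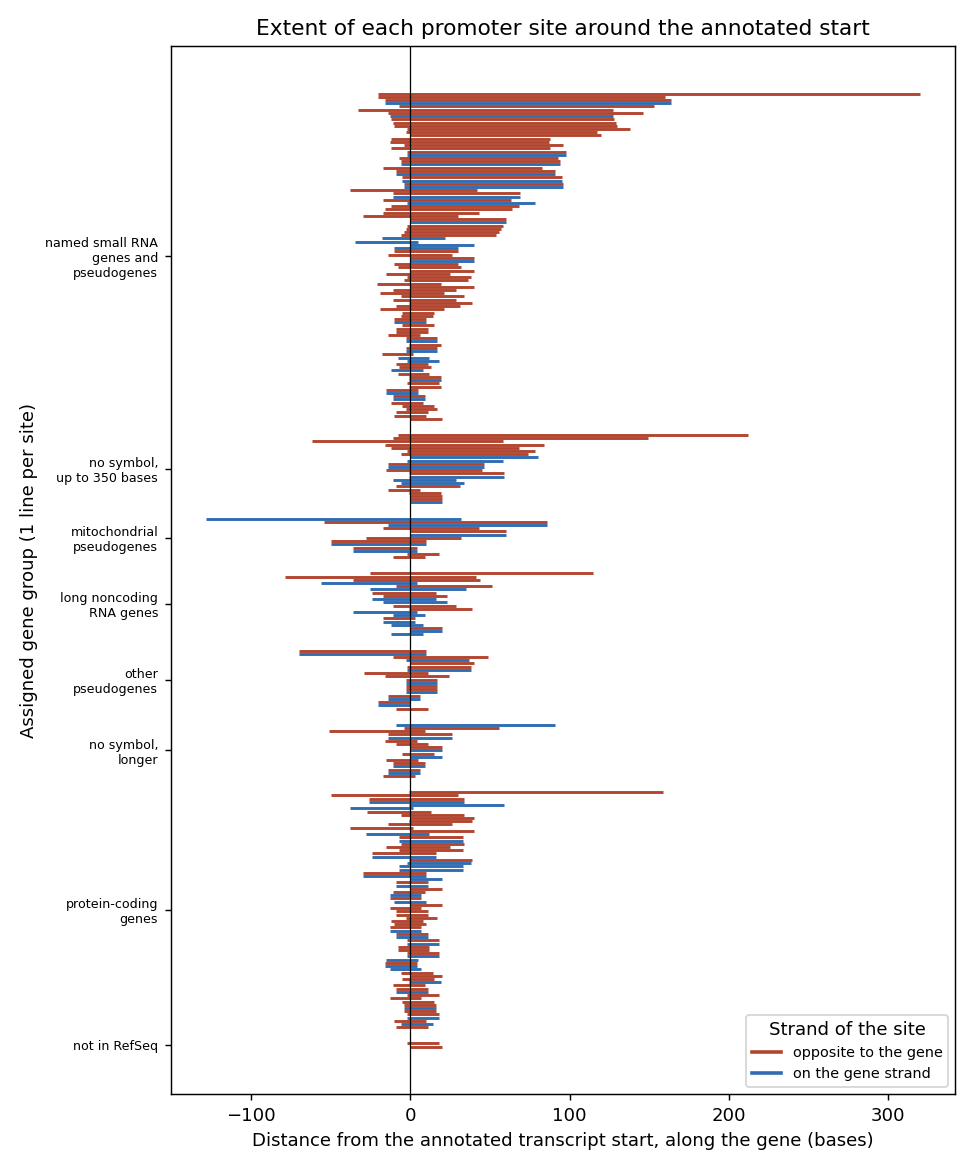
Extent of each of the 269 promoter sites around its annotated start (x axis, bases along the gene; 1 line per site, grouped by the class of the assigned gene), red for sites opposite to the gene and blue for sites on its strand. Every line crosses 0. The longest, of 341 bases, is at RN7SK, and most of the longest lines run from the start into short transcripts. Exceptions are a site at the protein-coding gene CCN1 and a site mostly ahead of the start of MTND4LP1.

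Many sites were at very short transcripts. Of the 269 sites, 130 (48.3%) were assigned to transcripts of at most 350 bases, from 100 genes. The share was 728 of 1490 sites (48.9%) among intergenic sites within 10000 bases of a start, and 0 of 760 among the other 5' UTR sites. Of the 374 genes with those 5' UTR sites, 368 were protein-coding, so the 0 is tied to how that class is defined. Sites of at least 100 bases numbered 41, and 35 of them were at such short transcripts. The widest site covered RN7SK over 341 bases.

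Several of these sites covered the RNA from end to end. Over the 100 short transcripts the median covered by promoter sites was 39.0% of the bases, and 19 transcripts were covered to at least 90%. The RN7SK site, at chr6:52995600-52995940 and opposite to the gene, covered 97.0% of the 331-base RNA, and other listed sites on the gene strand covered 85.5%. At the 3 named 7SK pseudogenes promoter sites covered at most 5.78%, though all listed sites together covered 32.2% of RN7SKP175. At 3 loci without a symbol that RefSeq names as 7SK pseudogenes, promoter sites covered 47.9% (RN7SKP255), 23.6% (RN7SKP176) and 14.0% (RN7SKP47).

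U6 sites were alike from copy to copy. Of 16 U6 sites, 15 were 101 bases wide, beginning 2 to 17 bases ahead of the start, and 10 stood in pairs of identical coordinates on both strands. Coverage of the 11 U6 transcripts ran from 39.8% to 92.5% with a median of 87.9%. RNU6-2 had 92.5%, RNU6-9 and the pseudogene RNU6-13P had 90.7% each, and RNU6-7 had 89.7%. The exception at the low end was RNU6-227P, with a site of 41 bases.

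U1 loci were spread more widely, from 1.97% at RNU1-14P to 100% at RNU1-4, with a median of 19.2% over 16 transcripts. RNU1-4 had a site of 181 bases on each strand, and RNU1-2 (98.2%) and LOC124904613 (93.9%) each had an opposite-strand site of 181 and 161 bases. Most low values were at U1 pseudogenes such as RNU1-138P (11%), yet RNU1-27P had 89.6% and RNU1-67P 84.8%. Of the U5 genes, which encode the RNA at the centre of the spliceosome, RNU5E-1 had 74.2% and RNU5A-1 60.3% covered.

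For 5S ribosomal RNA, the small RNA of the large ribosomal subunit, coverage varied from copy to copy. The 5 named genes RNA5S3, RNA5S4, RNA5S5, RNA5S8 and RNA5S16 on chromosome 1 were each covered to 100%. The RNA5S4 and RNA5S5 sites each lay 2240 bases from the site before them, the RNA5S8 site 6680 bases on and the RNA5S16 site 17900 bases further. RNA5S16 was the only copy of the 5 whose promoter site was on the gene strand. In RNA5S3, RNA5S4 and RNA5S5, listed sites on the gene strand covered 93.3%, 92.4% and 91.6% of the RNA, with promoter sites on the other strand. The other 10 of the 15 loci are named as 5S pseudogenes, and promoter sites covered from 6.03% (RNA5SP368) to 99.2% (RNA5SP202) of these, with 88.6% at RNA5SP243.

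**Figure D2:**
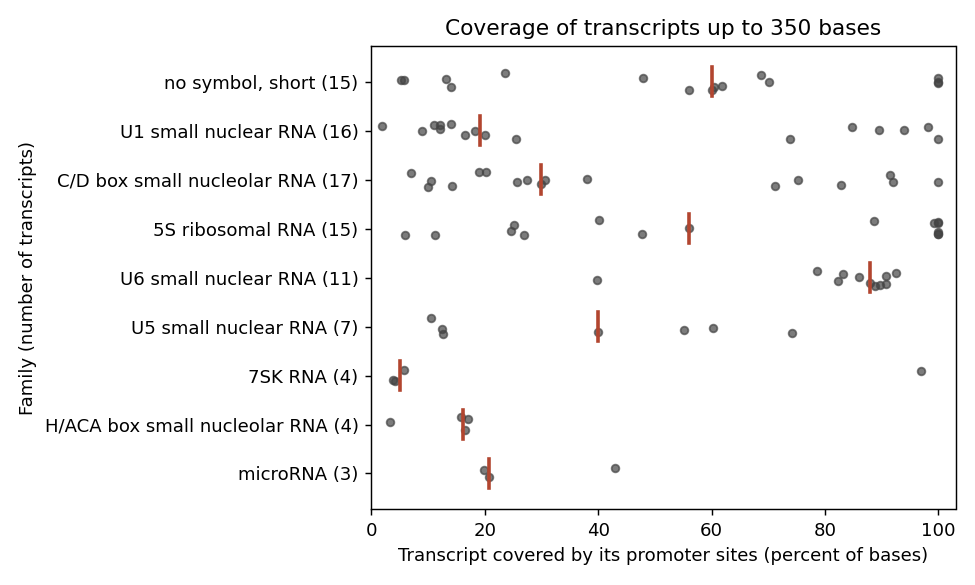
Percent of each transcript of at most 350 bases that its promoter sites cover (x axis), by family with the number of transcripts; points are transcripts and red bars medians. U6 copies sit together near their median of 87.9%, while U1, C/D box and 5S loci run from under 10% to 100%.

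Small nucleolar RNAs gave 24 sites at 21 genes. The C/D box family, whose members guide methylation of ribosomal RNA, had 19 sites at 17 genes and 17 of them (89.5%, exact 95% interval 66.9 to 98.7) were opposite to the gene. No C/D box RNA lacked opposite-strand coverage, and 10 of 17 had no listed site on the gene strand. SNORD100 was covered to 100%, SNORD110 to 92.0%, SNORD49A to 91.5%, SNORD104 to 82.9%, SNORD65 to 75.3% and SNORD55 to 71.2%. The remaining C/D box RNAs lay between 7.04% at SNORD10 and 38.1% at SNORD1B. These values are coverage by promoter sites. The 4 H/ACA box RNAs, whose family guides pseudouridylation, were covered by promoter sites to at most 17%, and by all listed sites to 47.1% at SNORA73A and 37.6% at SNORA81.

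Of the 21 small nucleolar RNA genes, 19 lay inside the span of a counted host gene. Only protein-coding genes, long noncoding RNA genes and transcribed pseudogenes above a set length were counted. SNORD104 overlapped SNHG25, which was not among the counted hosts. The 16 hosts included 12 protein-coding genes, among them the ribosomal protein genes RPS3, RPS12, RPL13A and RPL21 and 2 genes for the helicases EIF4A1 and EIF4A2 of translation initiation. Other hosts were NOP56 and NOP58, core proteins of C/D box particles, and NCL, which encodes nucleolin. All 5 listed sites in RPS3, both sites in RPS12 and the 1 site in RPL21 lay on small RNAs, while RPL13A had 4 of 10 sites off them. EIF4A1 had 9 of 15 sites off small RNAs and EIF4A2 4 of 15. A site counted for such a gene by its span can therefore be a site on the intron-encoded RNA.

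Some of the other short RNAs lay in longer genes too, and some did not. MIR21 lies in the span of VMP1, whose 1 listed site is the MIR21 site. MIR16-2 lies in SMC4, where 3 of 5 listed sites were on small RNAs, and SCARNA10, a Cajal body RNA, lies in NCAPD2, where all 5 were. In all, 47 of 81 named small RNA genes lay wholly inside a longer gene and 2 more overlapped one. The only tRNA locus among the sites was NMTRQ-TTG12-1, on the gene strand, with 8.33% covered.

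Genes without a symbol in the list were a mixed group. Of 39 such sites, 33 overlapped a RefSeq gene, and 16 of these lay on a small structured RNA gene or pseudogene. The 16 included 6 sites at 5 loci on 5S pseudogenes and 5 sites at 3 loci on 7SK pseudogenes. Of the rest, 1 locus held RNU11 and 1 RNU12, the RNAs of the minor spliceosome, and another SNORD68 in RPL13. Outside the 16, the sites at 2 loci lay on the actin pseudogenes ACTBP7 and ACTBP11.

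Sites at protein-coding starts were narrower than those at named small RNA genes, whose median width was 41 bases. The 74 protein-coding sites had a median width of 21 bases, the smallest of the grid of 20 bases on which all sites lie. Of these, 47 (63.5%) were of that width. Against RefSeq, 55 of 20056 protein-coding genes had a promoter site (0.274%), close to 163 of all 59792 RefSeq genes (0.273%). Of 57 protein-coding starts, 40 had a RefSeq window of the same gene and strand. In these, 18 lay at the RefSeq start itself, 10 within 50 bases of it, and 12 more than 50 bases away, all of these downstream. Downstream starts were at TTC7A (25358 bases), TMBIM6 (11095), MAFG (4203) and GNAS (2574), and less far at APP (116), ACTN4 (89), TPM3 (88) and CANX (59). At those genes the site spans the start of a shorter annotated transcript within the gene, not the RefSeq start.

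The wide protein-coding site was that of CCN1, a secreted matrix protein, with 161 bases opposite to the gene and a second site of 61 bases on the gene strand. Both began 1 base ahead of the CCN1 start, and the gene held 30 listed sites. Some other genes also had many listed sites in all, promoter sites included. For example, PLEC, a cytoskeletal linker, had 100, the integrin ITGA3 64, AGRN, a proteoglycan, 31, and the amyloid precursor APP 28. At ITGA3, 2 opposite-strand sites lay at 2 annotated starts. At PLEC, P4HB and APP the same coordinates were listed on both strands. Of the 56 genes, 40 had another listed site, with a median of 3 over the 56.

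Other listed sites near these starts lay mostly downstream. Within 2000 bases there were 169, of which 124 were downstream and 45 upstream. In the first 200 bases there were 37 downstream and 19 upstream. Downstream neighbours were found at 24 starts and upstream neighbours at 12. Starts of 1 gene can share a neighbour. A RefSeq start of another gene running away on the other strand lay within 1000 bases upstream of 10 of 41 starts (24.4%), beside 18.5% of all 22199 protein-coding starts. The 10 included UAP1, POU2F1, MYL6, P4HB, MAT2A, HNRNPA3, APP and PPIA.

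**Figure D3:**
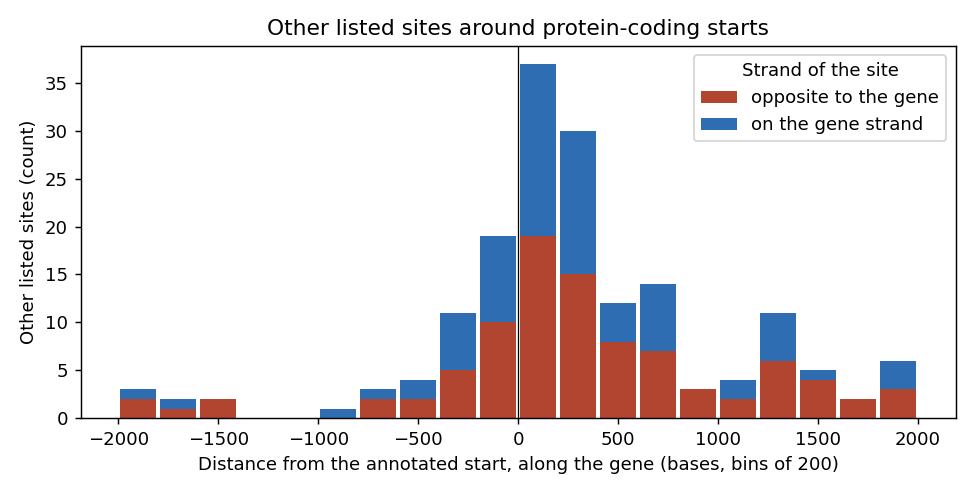
Number of other listed sites (y axis) in bins of 200 bases around protein-coding starts that hold a promoter site (x axis, bases along the gene), split by strand. The bin just downstream holds 37 sites and the bin just upstream 19, and both strands are present in both.

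The sequences under protein-coding and long noncoding starts were rich in G and C. Of the 269 sites, 40 lay in a RefSeq window, and 33 of these were distinct and not on the Y chromosome. Their median GC content was 66.7% (range 19.0% to 81.0%). The central 21 bases of all 22199 protein-coding windows had a median of 61.9% and a central 80% range of 42.9% to 81.0%, and 29 of the 33 sites fell inside it. In windows of 300 bases, both strands searched, GGGCGG was found in 21 of 28 member windows (75.0%) and in 56.3% of all windows. CCAAT was in 10 of 28 (35.7%) beside 34.7%, and TATAAA in 3 (10.7%) beside 9.47%. CALR and HSP90B1 also held the endoplasmic reticulum stress element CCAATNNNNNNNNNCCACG, found in 0.104% of all windows. The element itself contains CCAAT, so the matches overlap. That motif was searched after the gene names had been seen. The pyrimidine run that opens many translation machinery mRNAs, a C then 4 pyrimidines at the first base, was at 2 of 31 starts (6.45%) beside 4.54%, and the genes were CCDC14 and SLC25A6. These matches describe letters, not bound sites.

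The GAGE genes, tandem copies of a cancer-testis antigen family on the X chromosome, gave 6 sites of 21 bases, all opposite to the gene. The RefSeq sequence from 60 bases ahead of to 8 bases after the start was the same in all 6. The sites nevertheless cover 4 different stretches, shown here in capitals, since the grid falls differently on each copy.
GAGE12D, chrX:49541673-49541740, plus strand: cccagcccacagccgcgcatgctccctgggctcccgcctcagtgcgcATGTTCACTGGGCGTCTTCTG
GAGE12E, chrX:49551229-49551300, plus strand: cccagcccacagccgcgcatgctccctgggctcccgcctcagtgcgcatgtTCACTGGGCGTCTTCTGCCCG
GAGE2C, chrX:49560782-49560860, plus strand: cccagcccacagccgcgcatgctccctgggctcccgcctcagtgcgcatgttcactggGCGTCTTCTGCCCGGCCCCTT
GAGE4, chrX:49570340-49570420, plus strand: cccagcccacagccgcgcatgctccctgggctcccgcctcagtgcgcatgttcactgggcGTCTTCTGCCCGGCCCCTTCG
GAGE12H has the stretch of GAGE12E, and GAGE1 that of GAGE4. The bases under all 6 sites were the first 8 from the start, GTCTTCTG. The spacing was 9560 bases at 3 steps, then 9540 and 19080. These 6 sites are thus copies of the same sequence, not 6 separate observations.

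Other copied sequences recurred. SLC25A6, a mitochondrial carrier gene in the region shared by X and Y, was listed once on each chromosome at the same position. Of the mitochondrial pseudogenes, 4 lay together on chromosome 1. MTND2P28, MTCO1P12 and MTCO3P12 had 2 each and MTCO2P12 had 1. These copy mitochondrial sequence into the nuclear genome, so sites there cannot be told apart from sites on mitochondrial transcripts.

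Long noncoding RNA starts lay at, inside and ahead of the RefSeq spans. MALAT1 and NEAT1, abundant nuclear RNAs, and MIR663AHG had 5 sites each, the highest counts of any gene. The NEAT1 sites were at annotated starts 2, 327 and 741 bases into the RefSeq span. Those of MALAT1 lay 1346, 3659 and 5611 bases into it. At MIR663AHG 1 start was 44 bases into the span, and the others lay ahead of it, the farthest at -606 bases. NEAT1 had 104 sites in the whole list and MALAT1 61, so that these starts fell among many exon sites.

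**Figure D4:**
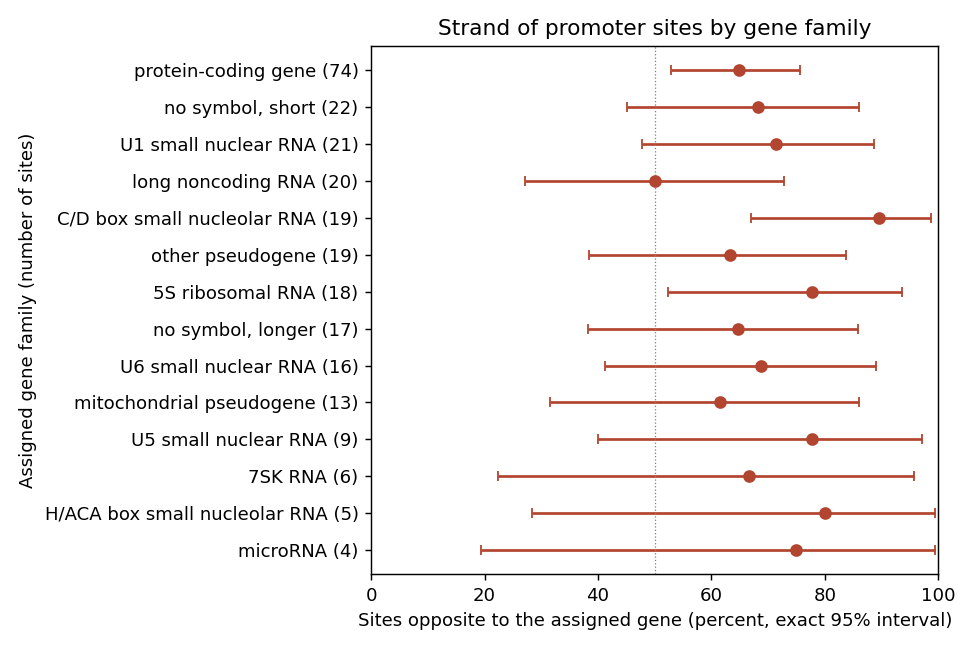
Percent of promoter sites opposite to the assigned gene (x axis, points, with exact 95% intervals) for each gene family with at least 4 sites (number of sites in brackets). Families lie between 50% for long noncoding RNAs and 89.5% for C/D box RNAs, and the intervals overlap.

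The sites ran mostly opposite to the assigned gene. Of 269, 184 (68.4%) were opposite and 85 on the gene strand. Small RNA genes had 76.5% opposite (67.0 to 84.3), protein-coding genes 64.9% (52.9 to 75.6) and long noncoding RNA genes 50% (27.2 to 72.8). Intervals here are exact 95% intervals for counting error only, and sites of 1 gene or of copied genes are not independent. Opposite-strand sites were found at 177 of 194 genes, and 65 genes had both strands. Of the sites on the gene strand, 73 of 85 (85.9%) were overlapped by a listed site of the other strand, against 107 of 184 (58.2%) of the opposite ones. An overlap between promoter sites of both strands counts on each side, so these shares depend on the group sizes. There were 48 pairs with identical coordinates on both strands, 96 sites in all. No source used here says whether the strand column gives the strand of the RNA or of the read, so an opposite site is not shown to be antisense RNA.

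The class was compared with the 760 other 5' UTR sites and the 1490 intergenic sites within 10000 bases of a start, by two-sided Fisher exact tests with 1 site per gene, adjusted over 8 tests by the Benjamini-Hochberg method. The classes share 22 and 15 genes with the promoter class. Copies of a gene each counted as a separate gene, among them the GAGE copies, near-identical small RNA copies and a gene listed on both X and Y. All 8 tests treat such copies as independent, which they are not, so the p-values may be too small. The effect of merging copies was not tested. The site taken was that with the lowest start, and file order decided where both strands had the same coordinates. At 65 of the 194 promoter genes both strands had a site. The site taken was opposite at 74.2% of 194 genes, against 65.5% of 374 genes with 5' UTR sites (adjusted exact p = 0.0415). Against intergenic sites, the share was 57.1% of 434 genes (adjusted exact p = 6.34e-05). Intergenic sites are labelled as lying outside annotated genes, so the strand comparison with them is tied to how the classes are defined. The strand shares given here are not shares of genes with any opposite-strand site. With transcripts of at most 350 bases left out, the promoter share was 64.9%. It differed by -0.614 points from the 5' UTR share (adjusted exact p = 0.904) and by 7.33 points from the intergenic one (adjusted exact p = 0.314). Among protein-coding genes the difference from 5' UTR sites was 4.43 points (adjusted exact p = 0.634).

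Identical pairs on both strands were less frequent than among 5' UTR sites, at 24.2% against 37.7% (adjusted exact p = 0.00181). Against intergenic sites, at 20.7%, the test was not passed (adjusted exact p = 0.347). With short transcripts left out, the difference from 5' UTR sites was -7.91 points (adjusted exact p = 0.298).

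A promoter site overlapped a RefSeq gene of another name in 47.6% of 166 genes, against 17.1% for 5' UTR sites (adjusted exact p = 2.16e-12) and 27.5% for intergenic sites (adjusted exact p = 4.57e-05). Among protein-coding genes it was 17.9%, against 16.8% of 5' UTR sites (adjusted exact p = 0.849) and 22.2% of intergenic sites, where the direction turned (-4.37 points, adjusted exact p = 0.634). For transcripts over 350 bases the difference from intergenic sites was 6.73 points (adjusted exact p = 0.345). The overlap comparison is tied to how the classes are defined. Intergenic sites are labelled as lying outside annotated genes, and 368 of the 374 genes with 5' UTR sites were protein-coding. Sites of the smallest width made up 45.9%, against 88.0% and 84.8% (adjusted exact p = 3.15e-25 and 3.97e-22), but a wider site is likelier to hold a start, so this difference is tied to how the class is defined.

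**Figure D5:**
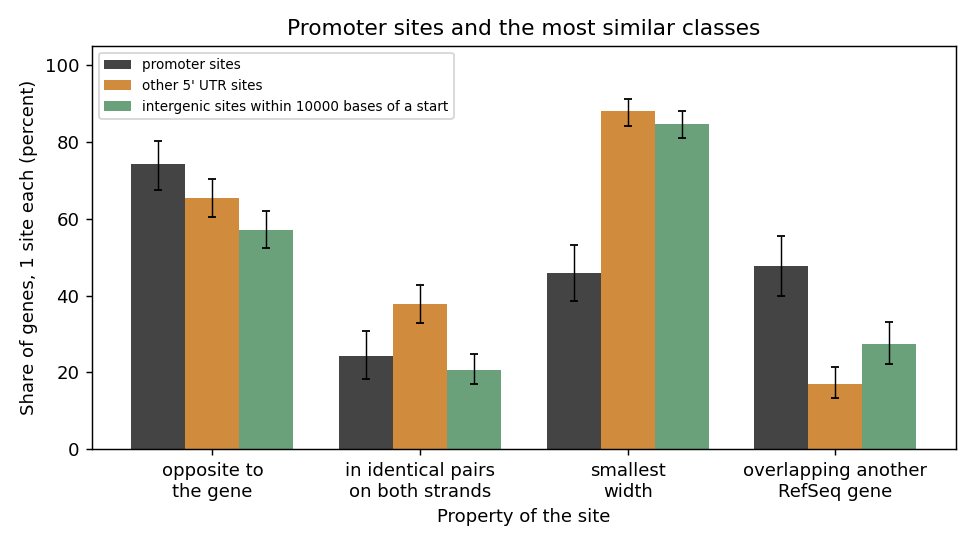
Share of genes, 1 site each (y axis, percent, bars with exact 95% intervals), with the property named on the x axis, for promoter sites, other 5' UTR sites and intergenic sites within 10000 bases of a start. Promoter sites have the highest bar for the opposite strand (74.2%) and for overlapping another gene (47.6%), and the lowest for the smallest width (45.9%). The overlap and width bars, and the strand bar of the intergenic sites, are tied to how the classes are defined. Copies of a gene count as separate genes.

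Gene lists, among them lists of the translation machinery, were counted but not tested. Of all RefSeq protein-coding genes, 0.274% had a promoter site, so 0 in lists of this size says little. Of 64 initiation factor and poly(A)-binding protein genes, PABPC1, which binds poly(A) tails, had a promoter site. HNRNPA3 was the 1 of 148 RNA-binding protein genes. Of 79 heat shock and folding genes, P4HB, a disulfide isomerase, and HSP90B1 had sites. The chaperone gene CALR and the prolyl isomerase gene PPIA also had promoter sites but were not counted in that list. No gene had one among 22 of amino acid transport, proline and glutamate metabolism, 35 aminoacyl-tRNA synthetases, 17 elongation and termination factors, 18 of glycolysis, 18 growth and cell cycle genes, 77 mitochondrial ribosomal proteins, 76 histones and 32 small nucleolar RNA host genes. Of 4527 small structured RNA genes, 76 had a promoter site (1.68%), beside 0.273% of all RefSeq genes. The shares were 1.56% of the initiation factor list, from 1 gene, and 2.53% of the folding list, from 2. Among 8 nuclear long noncoding RNAs, 2 had promoter sites, MALAT1 and NEAT1. A gene with no promoter site can still have sites elsewhere: with the other 5' UTR sites counted, 12 RNA-binding protein genes and 5 of the proline and glutamate list had at least 1.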

How the data were processed

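LACE-seq libraries of NCI-H1299 cells, 2 anti-P5CS and 2 IgG, were grouped by the sample titles. Per the submitters' processing notes the tools included fastp 0.23.2 and STAR 2.7.10a with the build hg38. The site caller, its threshold, the use of IgG and pooling are named in none of the sources used here. As deposited, the 1 list gives positions, widths, strands and assigned genes, with no measured level; 0 columns of other samples were left aside.

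Promoter sites were taken by the annotation text after 6 loci were dropped. Genes were matched by Entrez ID to RefSeq on GRCh38.p14 (164 of 166 genes). Shares were compared with two-sided Fisher exact tests on the site with the lowest start per gene, tested on simulated data, with ties within pairs broken by file order. Members, 14 gene lists and tests were chosen with earlier results of these data known. The named genes are those with most promoter sites, the widest sites, list members and small RNA genes; the rule's sites nearest to and farthest from the start could not be taken, since all distances were 0, and other names were chosen after their values were seen. Sequence windows ran from 250 bases before to 50 after each RefSeq start. Results for some genes are not reported here. Alternatives are given below. Python 3.11.15, pandas 2.3.3, numpy 2.4.6, scipy 1.17.1 and matplotlib 3.10.9 were used.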

Additional observations from a re-analysis of the deposited data

How the results depend on the processing

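Differences are in percentage points of genes, promoter class minus the class compared. The opposite-strand excess over 5' UTR sites was 6.1 with the highest site taken per gene, 6.17 with the dropped loci kept, 4.43 among protein-coding genes and 4.99 at the smallest width, none of which passed the test, and it turned to -0.614 for transcripts over 350 bases, an alternative chosen after seeing the data. Against intergenic sites it was 14.9 among protein-coding genes and 7.33 for transcripts over 350 bases, neither past the test. The lower share of pairs against 5' UTR sites no longer passed among protein-coding genes (-14.3), at the smallest width (-10.9) and over 350 bases (-7.91). For sites overlapping another gene, the excess over 5' UTR sites was 1.01 among protein-coding genes, and that over intergenic sites turned to -4.37 there and was 6.73 over 350 bases, none of them past the test. These alternatives also left fewer genes, and the cause was not tested. Counted by the nearest RefSeq start, gene lists held 15 genes with a promoter site in place of 83. The small RNA list fell from 76 to 0, because that table has only protein-coding and long noncoding starts, while the other lists together rose from 7 to 15, with small nucleolar RNA hosts from 0 to 2, RNA-binding proteins from 1 to 2 and glycolysis from 0 to 1. The median GC content was 68.9% with 20 bases added at each end, against 66.7%. The list gives no library, so leaving out a replicate could not be run. No paired analysis was possible because the deposited list has no value per library. Depth is unknown, and a site is placed to about 20 bases.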
